A study of Mus musculus with 9 samples.

Results

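The 10 genes described here act in the presentation of peptides on MHC class I molecules: B2m, H2-K1, H2-D1, Tap1, Tap2, Tapbp, Psmb8, Psmb9, Psmb10 and Erap1. They were chosen by name, with earlier results of the same libraries known, and were found by gene symbol among the 16921 genes of the RiboSeq table. All 10 passed the filter for low values, which kept 10099 genes. RiboSeq counts the ribosome-protected fragments (footprints) on the mRNA of each gene, so that a level combines the amount of the mRNA with its ribosome load. The cells were TTP-deficient bone marrow-derived macrophages (BMDMs) from 6-week-old mice, immortalized with hcmyc and hRasG12V. TTP (gene Zfp36) binds AU-rich elements in 3′UTRs and promotes the decay of the bound mRNAs. The cells were transduced with a doxycycline-inducible retroviral vector for GFP (here GFP-only), GFP-TTP or GFP-TTP-AA, in which alanines replace 2 serines that the kinase MK2 phosphorylates. All 3 groups lacked endogenous TTP, received doxycycline (1 µg/ml) for 6 h and LPS (1 µg/ml) for 1 h, and had 3 libraries each. Each group was a separately transduced and sorted cell line, and effects of the vector cannot be told apart from other differences between the lines.

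MHC class I molecules show peptides from cytosolic proteins to CD8 T cells. The proteasome cuts these proteins, and in cells exposed to interferons the subunits Psmb8, Psmb9 and Psmb10 take the places of the constitutive catalytic subunits. TAP, a dimer of Tap1 and Tap2, pumps the peptides into the endoplasmic reticulum, where Erap1 trims them. Tapbp (tapasin) holds the empty heavy chain, here H2-K1 or H2-D1, and its light chain B2m close to TAP until a peptide is bound. Macrophages present antigen by this route at rest and raise it after interferon.

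The deposited values were not observed counts but what the authors' statistical model fitted. After terms for condition, replicate number and library, the residual SD of the log2 values was 1.64e-15, and the table held 0 zeros. The same pattern over replicates 1, 2 and 3 therefore repeats in every group, and the points of a group do not show the spread that was observed between libraries. Overlap of groups below only sets their difference beside this pattern, and does not tell whether libraries agreed. The error of each comparison was the standard error (SE) deposited for that gene. A level below is a fitted value over its library's size factor, a group level is the geometric mean of 3 libraries, and a log2 fold change is the difference between group levels. The model shrinks fold changes towards 0, which makes them smaller than observed ones. A gene was called when the Wald test with the deposited SE gave a Benjamini-Hochberg adjusted p under 0.05. Because the genes were chosen with results known, their calls are descriptions and support nothing further.

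The sum of fitted values in a library was 2570292 to 12804501, and size factors ran from 0.415 to 2.16. Zfp36, the gene of TTP, had a level of 457 in the GFP-only, 923 in the GFP-TTP and 1530 in the GFP-TTP-AA cells, with the log2 fold change of GFP-TTP-AA over GFP-TTP at 0.73 ± 0.25 (SE). Its level was thus higher in both lines with a TTP transgene and unequal between them. GFP-only cells, which carry no TTP transgene and are labelled TTP-deficient, also had Zfp36 footprints well above the filter. The table holds 1 value per gene and not where its footprints lie, so that the level checks the transgenes and not the loss of endogenous TTP. Of 8 macrophage markers, 7 were found and 6 passed the filter. Markers of dendritic cells, neutrophils, T cells, B cells and fibroblasts (11 of 19 found) all stayed below the filter, the highest being Itgax at a mean of 9.16. The summed level of the macrophage markers was 82862 to 98297 in the GFP-only, 66246 to 77576 in the GFP-TTP and 93162 to 110239 in the GFP-TTP-AA libraries. It thus moved with the groups in the same direction as the called class I genes below. Most of it was Lyz2 (lysozyme, 60509 on average), which was called lower in GFP-TTP than in GFP-only cells, as was Fcgr1. The other markers that passed the filter were not called in this comparison. Their log2 fold changes were 0.10 for Itgam, 0.11 for Cd14, -0.17 for Csf1r and -0.12 for Cd68. Without Lyz2 the sums were 25749 to 26408, 25236 to 25957 and 29480 to 30081, so that those of GFP-only and GFP-TTP overlapped. The part of the markers in the results was not tested. For Lyz2 and Fcgr1, fewer cells with such footprints and fewer footprints per cell cannot be told apart in bulk libraries.

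Fitted footprints on the mRNAs of the light chain B2m and the heavy chains H2-K1 and H2-D1 were lowest in cells with wild-type TTP. B2m, H2-K1, H2-D1 and Psmb8 were called lower in GFP-TTP than in GFP-only cells, 4 of 10 genes. Among all 9938 genes tested in this comparison 1.29% were called lower, and since the genes were selected on these results nothing is read from comparing both figures. All 10 genes had a log2 fold change below 0 in this comparison, with a median of -0.47, while the median of all tested genes was 0.00. In GFP-TTP-AA against GFP-TTP cells 5 of 10 genes were called higher, namely the same 4 and Psmb9. Of 10099 tested genes 5.66% were called higher, 4.58% lower and 10.2% in either direction. The median of all 10 was 0.57 on the log2 scale and that of all tested genes 0.01. Between GFP-TTP-AA and GFP-only cells 0 of 10 genes were called by the Wald test, and 1 (B2m) had an unadjusted p under 0.05. In this comparison 3.02% of 10099 genes were called in either direction, and the median of the 10 genes was 0.08. The comparisons share libraries, so that a low level in GFP-TTP cells enters 2 of them.

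**Figure D1:**
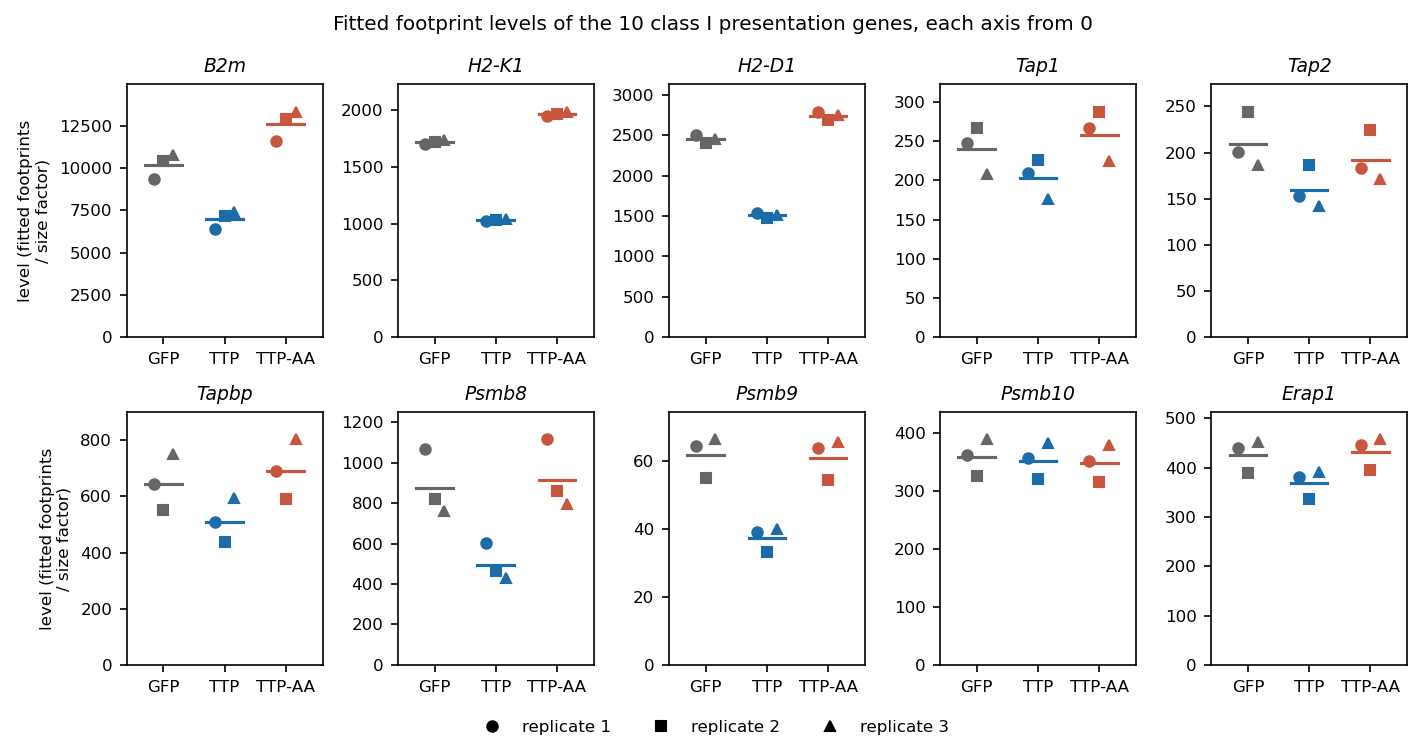
Fitted footprint level (fitted value divided by the size factor, linear axis from 0) of each of the 10 genes in the 9 libraries, by group, with symbols for replicates 1 to 3 and a bar at the geometric mean of the group. The group levels of B2m, H2-K1, H2-D1, Psmb8 and Psmb9 are lowest in GFP-TTP cells, while Psmb10 lies at about the same level in all groups. The replicate pattern repeats between groups because the values are fitted, so that the points of a group are not separate measurements of its level.

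B2m (beta-2 microglobulin), the light chain shared by all class I molecules, lies on GRCm38 at chr2:122147686-122153083, plus strand, and had the highest level of the set per kilobase of coding sequence (28446 in GFP-only cells). Its levels were 9346, 10413 and 10761 in the GFP-only libraries. In the GFP-TTP libraries they were 6414, 7146 and 7386. In the GFP-TTP-AA libraries they were 11573, 12895 and 13326. The group level was lowest in GFP-TTP and highest in GFP-TTP-AA cells. The log2 fold change was -0.54 ± 0.15 (SE) for GFP-TTP against GFP-only, 0.31 ± 0.15 for GFP-TTP-AA against GFP-only and 0.85 ± 0.15 for GFP-TTP-AA against GFP-TTP. As a fold, the last is 1.80, and B2m is the gene of the set with the largest difference between GFP-TTP-AA and GFP-only cells. That difference had an adjusted p of 0.307 (Wald test with the deposited SE) and was not called.

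A pair of B2m sequences is shown with the matched motif in capitals, the first for the interferon-response core GAAANNGAA, 139 bases before the RefSeq start, and the second for the one AU-rich pentamer ATTTA of its 448-base 3′UTR, at position 74.
B2m promoter, chr2:122147538-122147566, plus strand: ataagaacatGAAACTGAAaatgggaaag
B2m 3′UTR, chr2:122152697-122152725, plus strand: atatgctatacaATTTAtgcacgcagaaa
The heptamer TATTTAT, closer to the preferred element of TTP, was not found in the B2m 3′UTR.

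The heavy chains H2-K1 (chr17:33996017-34000347, minus strand) and H2-D1 (chr17:35262730-35267499, plus strand) carry the peptide groove. H2-K1 was at 1704, 1717 and 1735 in GFP-only, at 1020, 1028 and 1038 in GFP-TTP, and at 1950, 1965 and 1986 in GFP-TTP-AA libraries. H2-D1 was at 2500, 2404 and 2459 in GFP-only, at 1537, 1478 and 1512 in GFP-TTP, and at 2796, 2688 and 2750 in GFP-TTP-AA libraries. Both genes were lowest in GFP-TTP cells. H2-K1 had a log2 fold change of -0.74 ± 0.14 (SE) for GFP-TTP against GFP-only and of 0.94 ± 0.14 for GFP-TTP-AA against GFP-TTP. The latter was the highest value of the set. The values for H2-D1 were -0.70 ± 0.16 and 0.86 ± 0.16. Against GFP-only cells the GFP-TTP-AA cells differed by 0.19 ± 0.14 for H2-K1 and 0.16 ± 0.16 for H2-D1, and neither was called. The 95% interval for H2-K1 ran from -0.08 to 0.47 and that for H2-D1 from -0.16 to 0.48.

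The levels of H2-K1 and H2-D1 may share footprints, depending on how reads with more than 1 alignment were counted, which is not given in the sources used here. Their coding sequences were identical at 88.3% of 1116 aligned positions, and up to 2 alignments were kept per read. Of the 28-base windows of the H2-K1 coding sequence, about the length of a footprint, 35.5% also occurred in a transcript of another gene, 24.1% in H2-D1. For H2-D1 the share was 45.7%. The first window that both genes hold within an exon is shown as an example of a footprint that fits both. Below it stand their promoter sites of the kB type (GGGNNTTCC), the motif in capitals, which lie in a nearly identical stretch 111 bases before the RefSeq start of H2-K1 and 171 bases before that of H2-D1. The site of H2-D1 lies within the GENCODE span of the gene given above, which begins before its RefSeq start.
H2-K1 coding sequence, chr17:33999885-33999912, minus strand: ggagttcgtgcgcttcgacagcgacgcg
H2-D1 coding sequence, chr17:35263470-35263497, plus strand: ggagttcgtgcgcttcgacagcgacgcg
H2-K1 promoter, chr17:34000440-34000468, minus strand: gcccagggctGGGGATTCCccatctccac
H2-D1 promoter, chr17:35262913-35262941, plus strand: gcccagggctGGGGATTCCccatctcctc

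Of the 3 immunoproteasome subunits, Psmb8 and Psmb9 had similar log2 fold changes, and those of Psmb10 were about 0. The levels of the 3 were unlike, and differences between subunits were not tested. Psmb8 (LMP7; chr17:34197721-34201454, plus strand) had the largest change of the set between GFP-TTP and GFP-only cells. Its levels were 1068, 822 and 761 in GFP-only, 603, 464 and 430 in GFP-TTP, and 1116, 859 and 796 in GFP-TTP-AA libraries. The group level was lowest in GFP-TTP cells, while GFP-only and GFP-TTP-AA overlapped. The log2 fold change was -0.82 ± 0.15 (SE) for GFP-TTP against GFP-only, 0.06 ± 0.15 for GFP-TTP-AA against GFP-only and 0.89 ± 0.15 for GFP-TTP-AA against GFP-TTP. Psmb8 also had the widest replicate term of the set, with replicate 1 above replicate 3 by 0.49 on the log2 scale in every group.

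Psmb9 (LMP2; chr17:34181987-34187764, minus strand) had the fewest fitted footprints of the set. It was at 64.6, 55.2 and 66.5 in GFP-only, at 39.1, 33.4 and 40.2 in GFP-TTP, and at 63.8, 54.5 and 65.7 in GFP-TTP-AA libraries. The group level was lowest in GFP-TTP cells, and the other groups overlapped. In GFP-TTP against GFP-only cells the log2 fold change was -0.73 ± 0.24 (SE), with an adjusted p of 0.0797 (Wald test with the deposited SE), and was not called. GFP-TTP-AA against GFP-TTP gave 0.71 ± 0.24, which was called with an adjusted p of 0.0313. Its smallest fitted value was 18.9 footprints in a library, and its SE was the largest of the set. The annotated 5′ ends of Psmb9 and Tap1 overlap on opposite strands, and whether reads were counted by strand is not given in the sources used here.

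Psmb10 (MECL-1; chr8:105935735-105938444, minus strand), the third immunoproteasome subunit, was at 362, 324 and 388 in GFP-only, at 356, 319 and 382 in GFP-TTP, and at 352, 316 and 378 in GFP-TTP-AA libraries. The 3 groups overlapped almost completely. Its log2 fold changes lay between -0.04 and -0.02 in the 3 comparisons, each with an SE of 0.17. The 95% interval for GFP-TTP against GFP-only, -0.36 to 0.32, did not reach the value of Psmb8.

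Compared with the constitutive subunits that they replace, immunoproteasome subunits had fewer footprints per kilobase of coding sequence. In GFP-only cells Psmb8 stood at 1056 per kilobase and Psmb5 at 2539, a ratio of 41.6%. This ratio was 25.9% for the GFP-TTP and 36.8% for the GFP-TTP-AA cells. Psmb9 reached 1.75% of Psmb6 in the GFP-only, 1.14% in the GFP-TTP and 1.77% in the GFP-TTP-AA cells. For Psmb10 against Psmb7 the ratios were 18.6%, 17.7% and 16.6%. Psmb5 was called higher in GFP-TTP-AA than in GFP-TTP cells (log2 fold change 0.38 ± 0.13, SE), while Psmb6 and Psmb7 were not called in any comparison. These ratios are of fitted levels and have no SE of their own, and the difference between them was not tested.

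**Figure D2:**
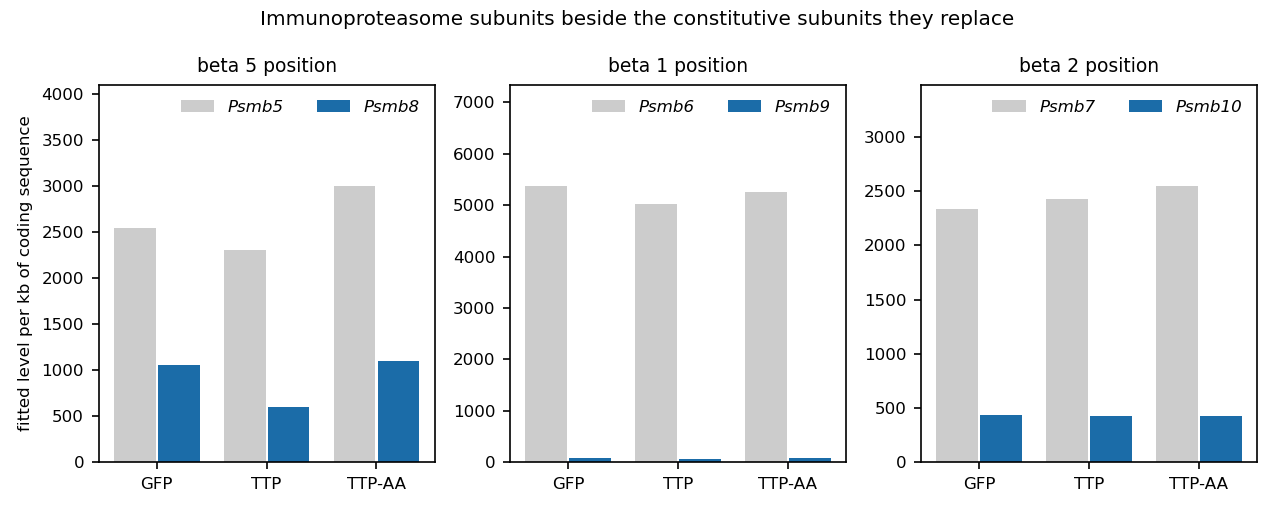
Fitted group level per kilobase of coding sequence (linear axis from 0, no error bars since a ratio of fitted levels has no deposited error) of each immunoproteasome subunit, in blue, beside the constitutive subunit whose place it takes, in grey. Psmb8 falls from 1056 in GFP-only to 596 in GFP-TTP cells beside Psmb5 at 2539 and 2299, whereas Psmb10 stays between 424 and 436.

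The peptide transporter and its partners had smaller differences, and none was called. Tap1 (chr17:34187553-34197225, plus strand) was at 248, 267 and 209 in GFP-only, at 210, 226 and 177 in GFP-TTP, and at 267, 288 and 225 in GFP-TTP-AA libraries. All 3 groups overlapped, and the replicate term of Tap1 spanned 0.36 on the log2 scale against 0.35 between the group levels. The log2 fold change of Tap1 was -0.24 ± 0.17 (SE) for GFP-TTP against GFP-only and 0.35 ± 0.17 for GFP-TTP-AA against GFP-TTP. Tap2 (chr17:34203527-34216321, plus strand) was at 200, 244 and 187 in GFP-only, at 153, 186 and 142 in GFP-TTP, and at 184, 224 and 171 in GFP-TTP-AA libraries. Its group level was lowest in GFP-TTP cells. For Tap2 the log2 fold change was -0.39 ± 0.19 (SE) for GFP-TTP against GFP-only and 0.27 ± 0.19 for GFP-TTP-AA against GFP-TTP. Tap2 was one of the 3 genes with a value below 0 for GFP-TTP-AA against GFP-only, -0.13 ± 0.18, beside Psmb9 and Psmb10. The coding sequences of Tap1 and Tap2 shared 2.28% of the 28-base windows of Tap1.

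Tapbp (chr17:33915899-33929292, plus strand) was at 645, 553 and 750 in GFP-only, at 509, 437 and 593 in GFP-TTP, and at 690, 593 and 803 in GFP-TTP-AA libraries. The groups overlapped, with replicate 3 above replicate 2 by 0.44 on the log2 scale in each. The log2 fold change of Tapbp was -0.34 ± 0.16 (SE) for GFP-TTP against GFP-only and 0.44 ± 0.16 for GFP-TTP-AA against GFP-TTP. The adjusted p of the latter, 0.0577 (Wald test with the deposited SE), fell just outside the threshold. Psmb9 at 0.0313 stood just inside it. Per kilobase of coding sequence Tapbp exceeded Tap1 by 3.89 to 4.17 times, and Tap1 exceeded Tap2 by 1.11 to 1.31 times, over the 3 groups.

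Erap1 (chr13:74639568-74693201, plus strand), the trimming peptidase, was at 440, 389 and 452 in GFP-only, at 381, 337 and 391 in GFP-TTP, and at 445, 394 and 457 in GFP-TTP-AA libraries. The group level was lowest in GFP-TTP cells. None of its log2 fold changes was called, with -0.21 ± 0.16 (SE) for GFP-TTP against GFP-only and 0.23 ± 0.16 for GFP-TTP-AA against GFP-TTP. Its promoter holds 2 overlapping matches of the interferon-response core on the other strand, both in capitals, shown because B2m is the only other gene of the set with a match. The nearer match begins 3 bases before the RefSeq start and runs across it. Both lie within the GENCODE span of the gene given above, which begins before that start.
Erap1 promoter, chr13:74639840-74639868, plus strand: caccTTCACTTTCACTTTCggtcccgggc

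**Figure D3:**
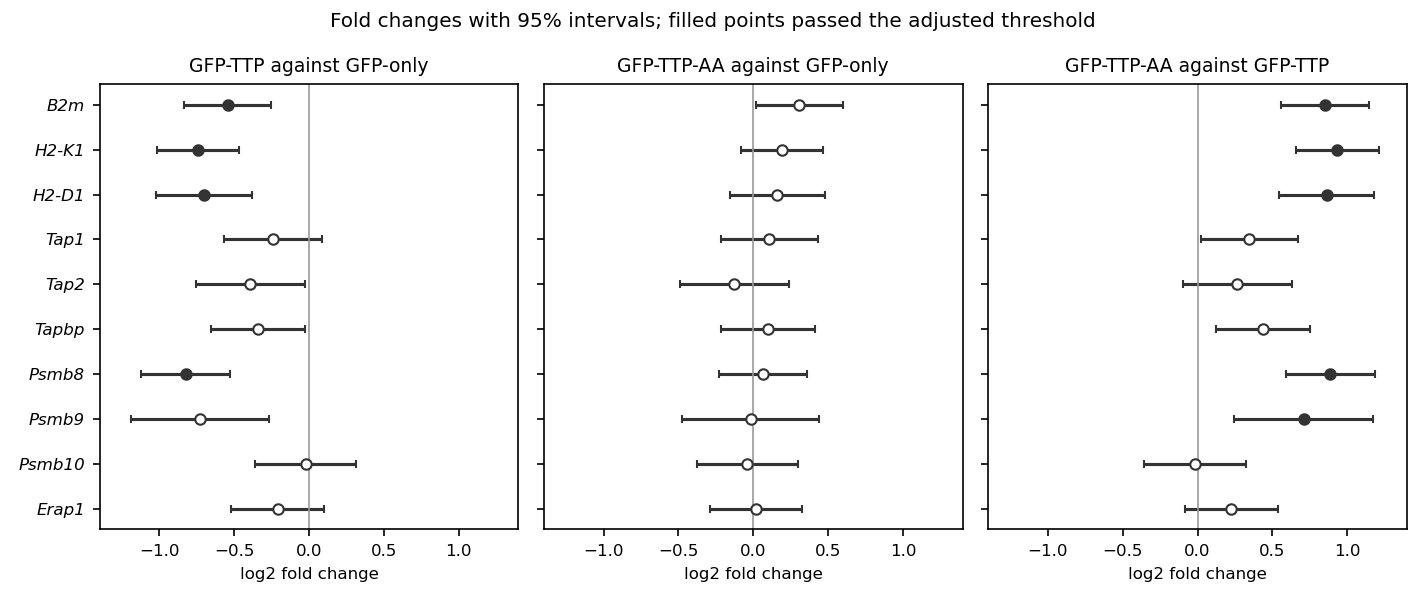
Log2 fold change of each gene in the 3 comparisons, as points with 95% intervals from the deposited standard errors, filled where the gene was called. The 4 genes called lower in GFP-TTP cells and the 5 called higher in GFP-TTP-AA cells lie on opposite sides of 0, and in the middle panel 9 of the 10 intervals include 0.

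The genes share little in the sequences that were searched. GAAANNGAA, searched on both strands of the 300 bases around the RefSeq start, was found for 2 of the 9 genes that have such a window (B2m and Erap1) and for 9.76% of all 27025 genes with a window. GGGNNTTCC was found for 2 of 9 (H2-K1 and H2-D1) and for 6.58% of all genes. In 3′UTRs, read on the sense strand, 3 of 10 genes hold ATTTA: B2m, Tap1 and Erap1. Of 9964 genes with a 3′UTR, 65.8% hold it. TATTTAT was found in 0 of 10 and in 27.5% of all genes. A 3′UTR among the 10 genes was between 55 and 2472 bases long and the median of all genes was 945, so that most of the set offered less sequence to search. Of the 5 genes called higher in GFP-TTP-AA than in GFP-TTP cells, B2m holds 1 ATTTA. H2-K1, H2-D1, Psmb8 and Psmb9 hold neither AU-rich motif. The part of these motifs in the results was not tested.

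On chromosome 17, 7 of the 10 genes lie in the MHC among other expressed genes. From Tapbp to H2-D1, over 1.35 Mb, 43 other genes passed the filter. Their median log2 fold change was 0.00 for GFP-TTP against GFP-only and -0.01 for GFP-TTP-AA against GFP-TTP. Of the 43, 1 was called lower and 0 higher in the first comparison, while 2 were called higher and 3 lower in the latter. The window of 1 Mb on either side of H2-D1 held 54 other genes, of which 2 were called in the first comparison and 13 in the latter, where their median was -0.12 and 10.2% of all genes were called. For the other 6 genes in the MHC such windows held 48 to 56 genes, with 0 or 1 called in the first comparison and 1 to 4 in the latter. Within 1 Mb of B2m on chromosome 2 there were 18 other genes, with medians of 0.09 and -0.02 and 1 called in both of these comparisons. Around Psmb10 there were 34 (medians 0.02 and 0.00, 0 and 3 called) and around Erap1 9 (medians 0.03 and -0.02, 0 called in both).

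**Figure D4:**
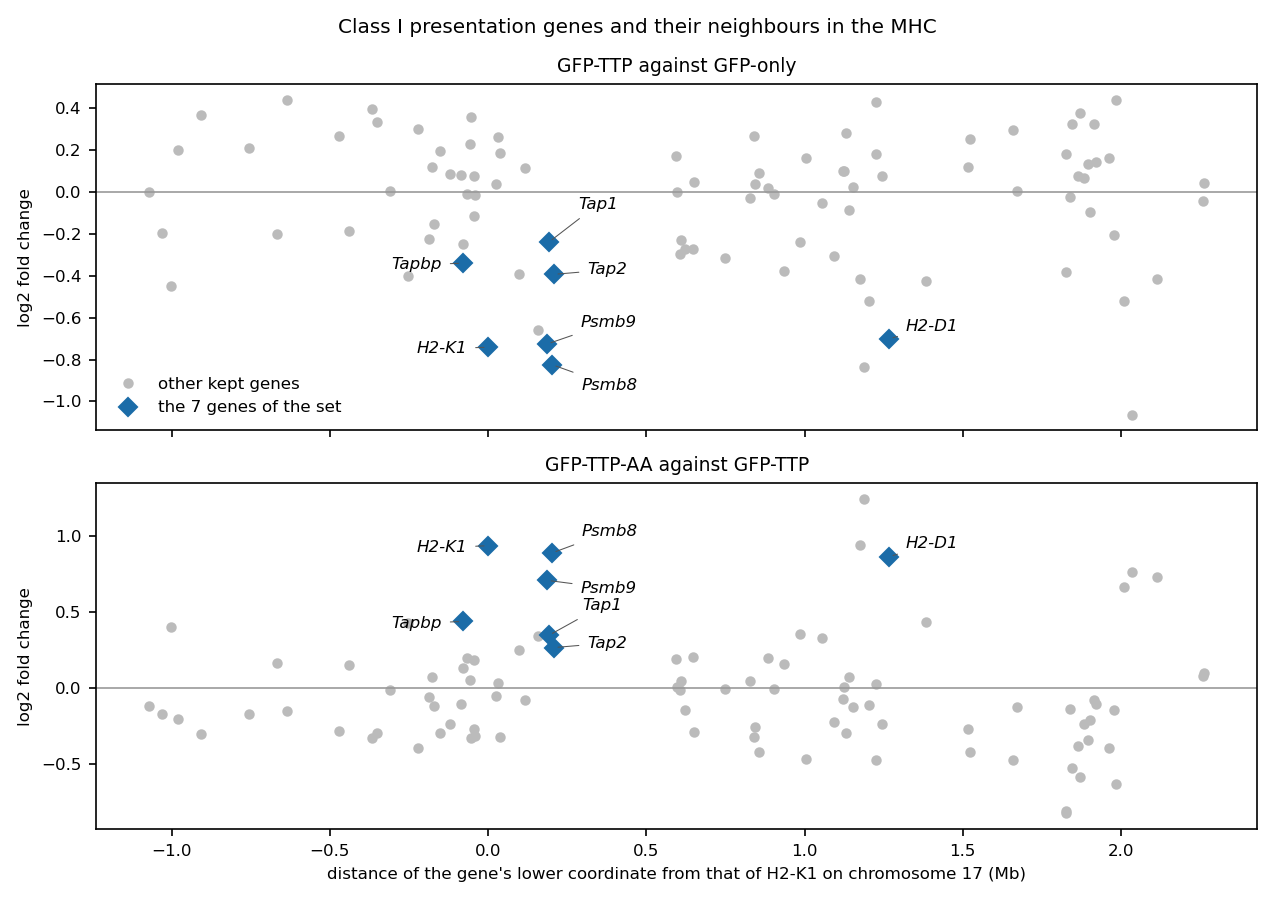
Log2 fold change (vertical axes) against the distance in Mb from H2-K1 on chromosome 17, for GFP-TTP against GFP-only (top) and GFP-TTP-AA against GFP-TTP (bottom), with the 7 genes of the set as blue diamonds and other genes that passed the filter in grey. The 7 genes lie below 0 in the top panel and above 0 in the bottom panel, among neighbours scattered around 0.

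Other genes of the pathway, were taken from lists made with earlier results of these data known. Of 32 tested genes of class I presentation and its regulators outside the set, 0 were called higher and 1 lower in GFP-TTP against GFP-only cells, where 0.805% and 1.29% of all tested genes were. Between GFP-TTP-AA and GFP-only cells 0 of 32 were called, beside 3.02% of all genes. In GFP-TTP-AA against GFP-TTP cells 4 were called higher and 2 lower, beside 5.66% and 4.58% of all genes. The gene called in GFP-TTP against GFP-only was H2-T23, the heavy chain of Qa-1, a non-classical class I molecule. H2-T23 had levels of 92.0 in the GFP-only, 44.0 in the GFP-TTP and 74.5 in the GFP-TTP-AA cells. Its log2 fold change was -1.06 ± 0.22 (SE, adjusted p = 0.000365 by the Wald test) for GFP-TTP against GFP-only and 0.76 ± 0.23 (adjusted p = 0.0121) for GFP-TTP-AA against GFP-TTP. H2-T23 shares 14.8% of the windows of H2-K1. H2-T24, another non-classical heavy chain, was called higher in GFP-TTP-AA than in GFP-TTP cells (0.66 ± 0.24). Only 6 of the 22 other heavy chains listed passed the filter. Their log2 fold changes ran from -1.06 to 0.13 for GFP-TTP against GFP-only and from -0.48 to 0.76 for GFP-TTP-AA against GFP-TTP. Not all were lowest in GFP-TTP cells. H2-M3 was at 312 in the GFP-only, 341 in the GFP-TTP and 244 in the GFP-TTP-AA cells, and was not called.

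Among 10 transcriptional regulators of class I genes, 1 was called. Irf9, the DNA-binding part of the interferon-activated factor ISGF3, was at 47.2 in the GFP-only, 30.7 in the GFP-TTP and 68.7 in the GFP-TTP-AA cells. Its log2 fold change for GFP-TTP-AA against GFP-TTP was 1.16 ± 0.25 (SE). Nlrc5, the transactivator of class I genes, was low, with 24.7, 21.3 and 26.2. All 10 regulators had a value below 0 for GFP-TTP against GFP-only, from -0.62 to -0.02, and none was called there. Of all tested genes 49.7% were below 0. Since the list was made with earlier results known, nothing is read from comparing both figures. Some regulators stood at about 0, such as Irf1 (-0.03 ± 0.25, SE) and Rfxank (-0.02 ± 0.23). Among general chaperones of the endoplasmic reticulum, Canx (calnexin, -0.48 ± 0.13) and Hspa5 (BiP, -0.54 ± 0.14) were called lower in GFP-TTP-AA than in GFP-TTP cells. Calr and Pdia3, which act with Tapbp in peptide loading, were not called, with -0.23 ± 0.14 and -0.09 ± 0.12. All 5 other trimming peptidases (Lnpep, Npepps, Tpp2, Thop1 and Blmh) were tested and not called, with log2 fold changes between -0.24 and 0.22 over the 3 comparisons.

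MHC class II presentation, listed for comparison, was largely below the filter. Of 10 genes 3 were tested, and 1 was called in 1 comparison. The log2 fold changes of the 3 ran from -0.66 to -0.11 for GFP-TTP against GFP-only. For GFP-TTP-AA against GFP-TTP they ran from 0.25 to 0.52, so that all 3 were lowest in GFP-TTP cells, like most of the set. H2-DMb1 was at 131 in the GFP-only, 82.8 in the GFP-TTP and 105 in the GFP-TTP-AA cells. Its value for GFP-TTP against GFP-only, -0.66 ± 0.21 (SE), was not called (adjusted p = 0.0602 by the Wald test). Cd74, the invariant chain, was at 994 in the GFP-only, 921 in the GFP-TTP and 1322 in the GFP-TTP-AA cells, and was called higher in GFP-TTP-AA than in GFP-TTP cells (0.52 ± 0.16, SE). The chains H2-Aa, H2-Ab1 and H2-Eb1 had mean levels of 0.29, 2.43 and 4.23, and the class II transactivator Ciita 0.55.

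The genes whose 9 levels were most like those of B2m were found by the Euclidean distance between log2 levels centred on each gene, over 8425 candidates with a mean of at least 50. They were Ctss (cathepsin S, distance 0.16), S100a6 (0.22), Trim30a (0.23), Ociad2 (0.28) and Tnfrsf1a (0.28). Ctss, a lysosomal protease that processes the invariant chain, was at 2622 in the GFP-only, 1737 in the GFP-TTP and 3266 in the GFP-TTP-AA cells. Within the set H2-K1 was closest to B2m (0.34, which would rank 13 among the 8425 candidates), followed by H2-D1 (0.38, rank 17). Psmb10 was farthest (1.14, rank 3463). Psmb8, which was called in the same comparisons as B2m, came next (0.96, rank 1694), beyond the uncalled Tap1 (0.87, rank 1075). The distance thus reflects the replicate term of a gene as well as its group levels. These distances use fitted values, which carry 1 pattern over the replicates per gene, and are a description.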

How the data were processed

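Footprints were isolated with the ARTseq kit, depleted of rRNA and sequenced as 50 base single reads. Per the labels' processing notes the tools were Trim Galore, TopHat2 2.0.12 and HTSeq on GRCm38/mm10. The HTSeq settings are not given in the sources used here. Up to 2 alignments per read were kept. The authors fitted the counts with DESeq2 1.6.3, with terms for library date and condition. The deposited table of normalized counts holds a signal, the fitted mean of each gene and library times the size factor (16932 lines, 11 of them repeated). The authors' deposited comparison tables also hold their own fold changes, test statistics and p-values. None of these entered a result, and 1 fold change was looked at to settle a setting, as given below. Read from them were the SE on the log2 scale and a signal deposited by the authors, the mean over all libraries, which set the common scale.

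The genes and all lists were chosen with earlier results of these data known. Size factors were recovered from the 2000 genes with the lowest fitted means, whose effects are shrunken to about 0. The number 2000 was chosen after the data were seen, by comparing the recovered constant with a deposited fold change of 1 gene. Genes with a mean of at least 10 were kept. Log2 fold changes divided by the deposited SE gave two-sided normal p-values (Wald test), adjusted over all kept genes by the Benjamini-Hochberg method. Such p-values measure the spread between libraries of 1 cell line per group, which may be technical. This amounts to the form of the authors' own test, with a filter chosen here. Genes without an SE were not tested. Depth enters here through the SE and through the shrinkage of the fold changes, because observed counts were not analysed here. The largest SE was 0.25. Genes as unlike in GFP-only level as Irf1 (492) and Nlrc5 (24.7) had this SE, so that it is not a measured worst error. Named genes were the 10 of the set, every called gene of the pathway lists, and the 5 nearest to B2m; other genes named served as context and were chosen after their values were seen. Coding lengths, 3′UTRs and coordinates came from GENCODE vM21 (GRCm38), using the transcript with the longest coding sequence, and promoters (250 bases before to 50 after the start) from RefSeq on the same build. The steps were tested on simulated data in which the lowest genes were unchanged by construction. That test could not check whether they are unchanged in the real data, on which the size factors rest. Python 3.11.15, numpy 2.4.6, pandas 2.3.3, scipy 1.17.1, matplotlib 3.10.9 and Biopython 1.88 were used.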

Additional observations from a re-analysis of the deposited data

How the results depend on the processing

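Alternatives were another filter (none, or a mean of at least 50), subtraction of the median of all genes or of the chromosome, adjustment over the 3 comparisons together and, chosen after the data were seen, size factors from the 500 or the 100 lowest genes and a filter on the undivided fitted values. Of 240 values for the 10 genes 233 kept their direction and their side of the threshold. Psmb9 was called lower in GFP-TTP against GFP-only cells (-0.73, adjusted p = 0.044) and lost its call in GFP-TTP-AA against GFP-TTP (0.71, adjusted p = 0.0524) with the joint adjustment. Tapbp was called in the latter comparison (0.46, adjusted p = 0.0468) with the chromosome median subtracted. The sign turned for values near 0 in GFP-TTP-AA against GFP-only, with Psmb9 at 0.0012 and Erap1 at -0.0091 under chromosome medians, and Erap1 at -0.0113 with the 500 or the 100 lowest genes. Counts of genes called stayed within 1.5 times of those reported. A pseudocount of 10 moved no fold change by more than its SE. Motif counts in the longest 3′UTR and RefSeq coding lengths gave the values reported. The reported tests already rest on the library date term of the authors' model, through the deposited SE, and the fitted values carry a term per replicate number. No paired analysis was possible because a fit with another block, or without that term, needs the observed spread between libraries, and for the same reason no library could be left out. Shrinkage of the fold changes could not be undone.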
